A study of Homo sapiens with 9 samples.

Results

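The 44 genes described here act in mitosis and chromosome segregation. They were taken by name and not by their measured values, though with earlier results of these data known, from the 31033 gene names on an Agilent single-color whole-genome array, and CDC2 is the older name of CDK1 that the array uses. All 44 were found, on 57 probes. RNA came from DLD1 cells, a near-diploid colorectal adenocarcinoma line, in 3 untreated cultures (Control), 3 with Lamin A/C Kd and 3 with Lamin B2 Kd, with 100 nM siRNA against LMNA or LMNB2 for 48 h in the knockdowns. Controls were not transfected and no array of a non-targeting siRNA was analysed here, so transfection and knockdown cannot be told apart. The arrays of a group come from independent biological replicates, as the methods state.

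Cells enter mitosis when cyclin B1 and CDK1, together with the Aurora and Polo-like kinases, drive chromosome condensation and spindle assembly. Kinetochores built on centromeres then attach each chromosome to the spindle, and the spindle checkpoint (BUB1, BUBR1, BUB3, MAD2 and the kinase TTK) holds back the anaphase-promoting complex until every chromosome is attached. Transcripts of most of these genes rise together in G2 and fall in G1. Their promoters often carry a CCAAT box, bound by the factor NF-Y, and a cell cycle homology region (CHR), read by the MuvB complex together with B-Myb and FOXM1 in dividing cells. In RNA from whole cultures, a smaller share of cells in G2 and M and less transcript per cell cannot be told apart. By propidium iodide staining and flow cytometry, the paper found similar shares of cycling cells in control and knockdown cultures. How the RNA values relate to those profiles was not tested.

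Promoter windows, 250 bases before to 50 after the transcription start, were read from RefSeq sequence of GRCh38.p14 for 35 of the 44 genes. BUB3, TTK, AURKA, FOXM1, CENPH, CENPM, BIRC5, UBE2C and TPX2 were not matched. The 5 windows below belong to the gene with the lowest signal relative to Control upon Lamin A/C Kd (KIF4A), to other genes that fell upon Lamin A/C Kd (CENPE and NEK2), and to both genes that fell upon Lamin B2 Kd (KIF2C and INCENP). Capitals mark CCAAT or its reverse complement ATTGG, and TTTGAA or its reverse complement TTCAAA, the letters of the CHR.
KIF4A (chrX:70289854-70290153, + strand): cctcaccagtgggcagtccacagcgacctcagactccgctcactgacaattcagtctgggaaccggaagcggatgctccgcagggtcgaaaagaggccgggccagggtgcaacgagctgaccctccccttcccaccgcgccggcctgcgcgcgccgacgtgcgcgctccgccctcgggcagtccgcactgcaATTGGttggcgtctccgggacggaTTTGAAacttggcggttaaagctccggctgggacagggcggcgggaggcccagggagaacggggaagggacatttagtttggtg
CENPE (chr4:103198294-103198593, - strand): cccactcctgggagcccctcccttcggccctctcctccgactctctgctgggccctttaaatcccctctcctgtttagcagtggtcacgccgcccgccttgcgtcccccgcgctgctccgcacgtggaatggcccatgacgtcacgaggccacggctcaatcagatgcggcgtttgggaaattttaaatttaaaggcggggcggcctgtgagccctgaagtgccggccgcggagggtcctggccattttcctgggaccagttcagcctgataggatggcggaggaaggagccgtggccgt
NEK2 (chr1:211675572-211675871, - strand): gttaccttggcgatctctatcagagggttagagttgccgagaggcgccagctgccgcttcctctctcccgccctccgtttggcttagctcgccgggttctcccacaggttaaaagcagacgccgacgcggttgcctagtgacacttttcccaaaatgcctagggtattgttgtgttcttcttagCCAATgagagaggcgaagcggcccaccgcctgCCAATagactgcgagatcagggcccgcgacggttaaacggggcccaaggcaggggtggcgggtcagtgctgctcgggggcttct
KIF2C (chr1:44739587-44739886, + strand): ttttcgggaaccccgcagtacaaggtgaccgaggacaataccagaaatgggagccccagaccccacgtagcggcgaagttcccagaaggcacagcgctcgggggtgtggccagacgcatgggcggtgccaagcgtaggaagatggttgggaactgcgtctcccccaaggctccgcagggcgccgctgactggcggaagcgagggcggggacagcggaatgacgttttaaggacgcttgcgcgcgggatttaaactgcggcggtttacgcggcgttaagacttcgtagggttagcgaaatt
INCENP (chr11:62123761-62124060, + strand): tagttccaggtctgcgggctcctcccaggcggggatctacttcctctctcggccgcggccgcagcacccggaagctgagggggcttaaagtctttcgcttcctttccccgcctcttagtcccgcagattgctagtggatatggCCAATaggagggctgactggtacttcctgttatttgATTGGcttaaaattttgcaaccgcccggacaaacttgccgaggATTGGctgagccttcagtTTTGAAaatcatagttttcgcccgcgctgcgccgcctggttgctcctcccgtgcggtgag

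KIF4A held ATTGG starting 58 bases before the start and TTTGAA 34 bases before it. NEK2 held CCAAT 66 and 34 bases before its start and no CHR letters. INCENP held a CCAAT farther upstream, ATTGG 71 and 28 bases before its start and TTTGAA 10 bases before it. No match lay in the windows of KIF2C and CENPE, which says only that these letters are not in this stretch. Counting the first window of each gene, CCAAT was present in 28 of 35 genes (80%) against 35.7% of the 27305 genes in the table. The letters TTTGAA were present in 25 of 35 (71.4%) against 15.4%, and both together in 21 of 35 (60%) against 6.08%. Over all windows, alternative starts included, the shares were 77.8, 66.7 and 55.6% for the mitotic genes, and 34.6, 15.2 and 5.9% for the 35116 windows of the table. In 2 genes a CCAAT and a TTTGAA match overlapped. Of the genes that fell upon Lamin A/C Kd, 8 of 13 with a window held both motifs, and of those not called, 13 of 22. The matches are a description of letters, not of bound sites.

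**Figure D1:**
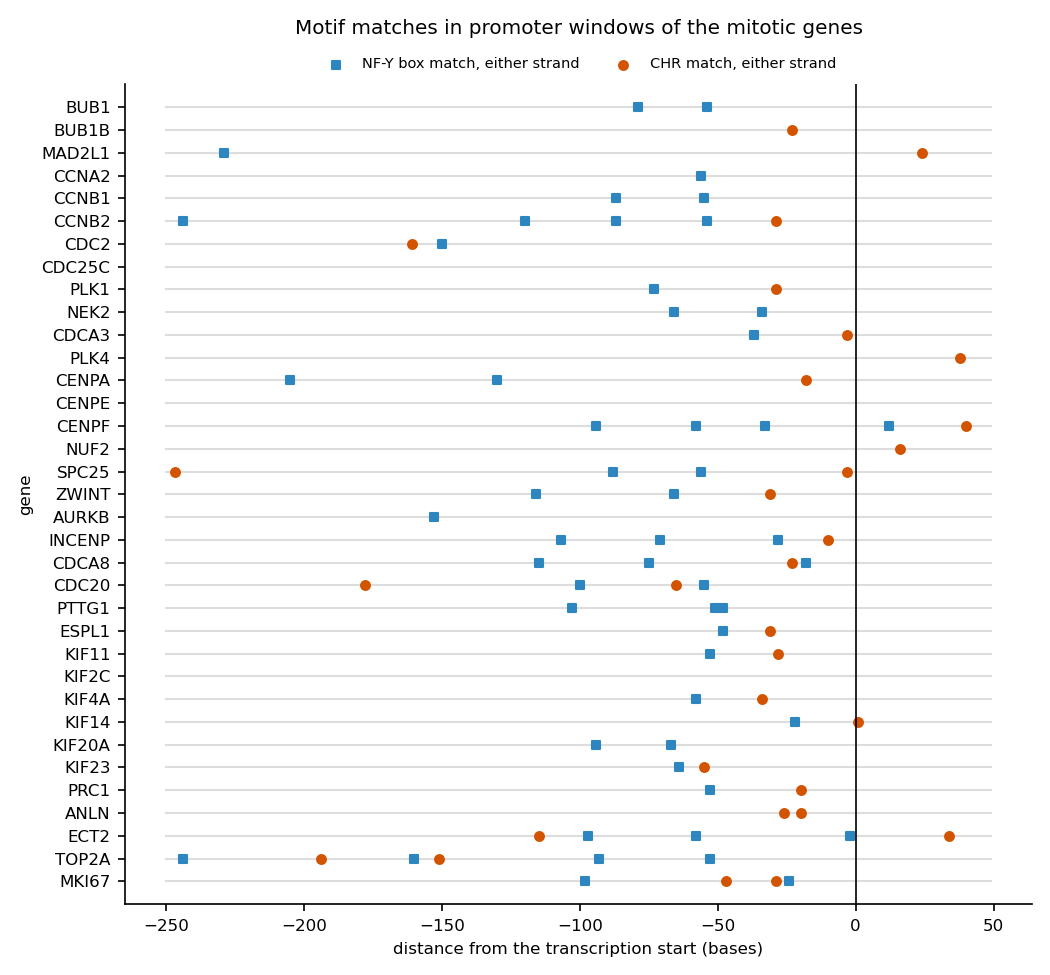
Each line is the promoter window of a mitotic gene, with the distance from the transcription start in bases on the horizontal axis. Squares mark the first base of an NF-Y box match and circles that of a CHR match, on either strand, and the median positions were −66.5 bases for the NF-Y box and −28 bases for the CHR.

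Values below are log2 signals minus the median of the array, from the brightest probe of each gene. That probe was well above background on all 9 arrays for every one of the 44 genes. Each knockdown was compared with Control by limma over all genes tested, with Benjamini-Hochberg adjusted p-values, and "fell" or "rose" means an adjusted p under 0.05. SE is the standard error of the log2 fold change. Between 65.6 and 74.1% of spots on an array were well above background, and 3 arrays per group limit the precision. LMNA fell by 3.83 on the log2 scale upon Lamin A/C Kd (adjusted p = 0.000225) and LMNB2 fell by 2.32 upon Lamin B2 Kd (adjusted p = 0.000523), each in the group labelled with its knockdown. Of the colorectal epithelial markers, 8 of 9 were well above background on all 9 arrays and CEACAM5 was so on 1. Of 11 markers of other cell types, 6 were also well above background on all arrays, namely CD3E, CD14, CD68, PECAM1, VWF and ACTA2. PTPRC, DES and the collagen genes COL1A1, COL1A2 and COL3A1 were so on at most 2. Lamin B2 Kd replicate 3 stood apart. It lay on a separate slide from the other 8 arrays, and its signals were deposited with 3 significant digits. Its values were the lowest of the Lamin B2 Kd arrays in 38 of the 43 mitotic genes measured on all 3. Under this scaling genes at large were low on it too. Relative to the control mean, the median of all genes was −0.31 on it against −0.06 and −0.08 on replicates 1 and 2. With the 75th percentile in place of the array median, that value was 0.04 on replicate 3. Its median intensity before scaling, 81.8, lay within the range of the other arrays.

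Upon Lamin A/C Kd, 17 of the 44 mitotic genes fell (38.6%) and 0 rose. Among all 21868 genes tested, 5.78% fell, and among genes well above background on all 9 arrays 6.6% did. The log2 fold change was below 0 for all 44 genes, and for 12143 of the 21868 genes tested. Its median over the 44 genes was −0.46 against −0.04 over all genes tested. The 44 genes ranged from −0.87 for KIF4A to −0.03 for CENPH. At an unadjusted limma p under 0.05, 34 genes were lower (14.7% of all genes were) and 0 higher. All 3 knockdown arrays lay below all 3 controls for 42 of 44 genes, where 25.2% of all genes did so. Relative to the control mean, the median of the mitotic genes was −0.48, −0.45 and −0.42 on the 3 Lamin A/C Kd arrays. No mitotic gene reached the criterion of a 2-fold change with an unadjusted p under 0.05, which 2.2% of all genes met. The number of genes that fell depended on single arrays. Leaving out any 1 of the 3 controls gave 3, and so did leaving out Lamin A/C Kd replicate 1 or 2. The count was 8 without Lamin A/C Kd replicate 3, and 32 without Lamin B2 Kd replicate 3, which enters the estimate of spread. KIF4A and AURKA fell under all 20 alternatives tried and ZWINT under 19. These alternatives are not independent. Blocking the slide amounts to leaving out Lamin B2 Kd replicate 3, which was alone on its slide. Leaving out any Lamin B2 Kd array changed the estimate of spread but not the fold changes upon Lamin A/C Kd.

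Upon Lamin B2 Kd, 2 of the 44 genes fell (4.55%), KIF2C and INCENP, and 0 rose. Among all 22123 genes tested 3.92% fell, and among genes well above background on all 9 arrays 5.43% did, so the share of mitotic genes was near the background. The log2 fold change was below 0 for 43 of 44 genes, and for 14746 of the 22123 genes tested. Its median over the 44 genes was −0.26 against −0.14 over all genes tested. At an unadjusted limma p under 0.05, 14 of 44 were lower and 0 higher, where 20.1% of all genes were lower. The 14 were 5 of mitotic entry, 3 of the kinetochore, 2 of the passenger complex, 2 of spindle motors, 1 of anaphase onset, 1 of chromosome structure and 0 of the checkpoint or of cytokinesis. The 3 knockdown arrays lay below the controls for 23 of the 43 genes measured on all arrays, against 27.3% of all such genes, and PLK1 was measured on 2 of the knockdown arrays. KIF2C was the 1 mitotic gene past 2-fold with an unadjusted p under 0.05, a criterion that 2.03% of all genes met. Relative to the control mean, the median of the mitotic genes was −0.13, −0.18 and −0.44 on the 3 arrays, while the median of all genes was −0.06, −0.08 and −0.31. Without Lamin B2 Kd replicate 3 the median of the mitotic genes was −0.16 against −0.06 over all genes, and both KIF2C and INCENP passed the adjusted p. Without that array 41 of 44 genes were below 0, with NEK2 at 0.02 and KIF23 at 0.07 on the other side beside ANLN, and 23 of the changes were over 1.5 times smaller. The count of 2 became 0 without Control replicate 3. It became 1 when replicate 1 or 2 of any of the 3 groups was left out. Both comparisons share the same 3 control arrays.

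**Figure D2:**
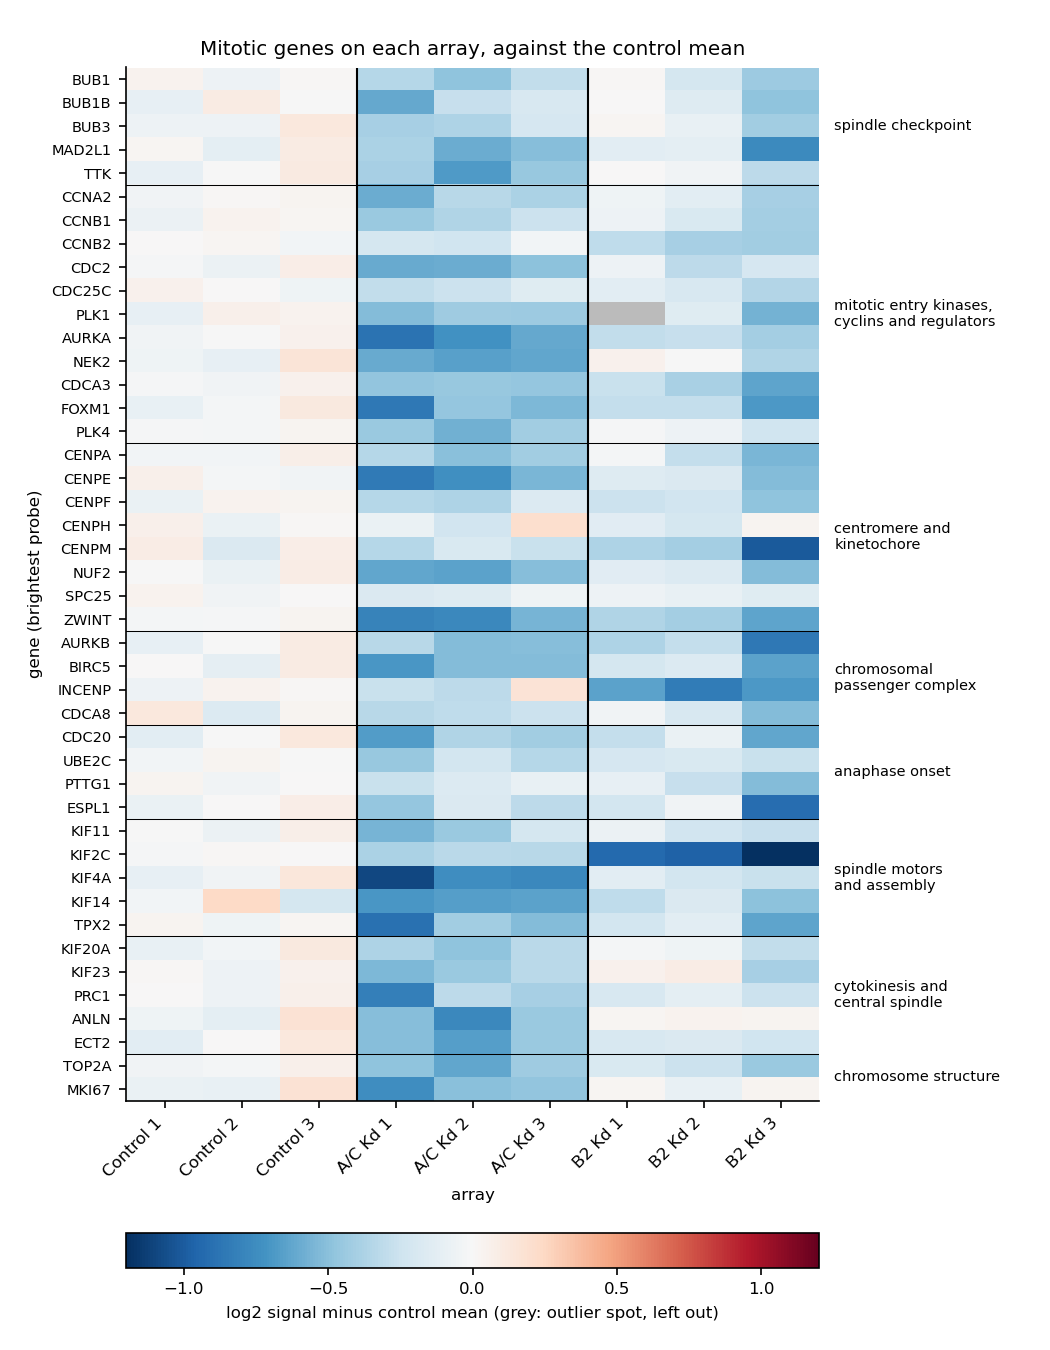
Each row is a mitotic gene and each column an array, and the color is the log2 signal minus the mean of the 3 controls. The 3 Lamin A/C Kd columns are blue in nearly all rows, KIF2C and INCENP are the darkest rows on the Lamin B2 Kd arrays 1 and 2, and most rows are darker on Lamin B2 Kd replicate 3.

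Scaling of the arrays moved these medians. With the 75th percentile in place of the 50th, the median of all genes moved from −0.14 to 0.06 upon Lamin B2 Kd and from −0.04 to 0.04 upon Lamin A/C Kd. The median of the mitotic genes was then −0.07 upon Lamin B2 Kd, with 30 of 44 below 0, and −0.38 upon Lamin A/C Kd, with 43 of 44 below 0. After quantile normalization the medians were −0.04 and −0.32, with 26 and 41 of 44 below 0. Relative to the median of all genes, the mitotic genes were at −0.42 upon Lamin A/C Kd and at −0.12 upon Lamin B2 Kd. This difference stayed between −0.46 and −0.34 upon Lamin A/C Kd over the 20 alternatives and between −0.21 and −0.05 upon Lamin B2 Kd.

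**Figure D3:**
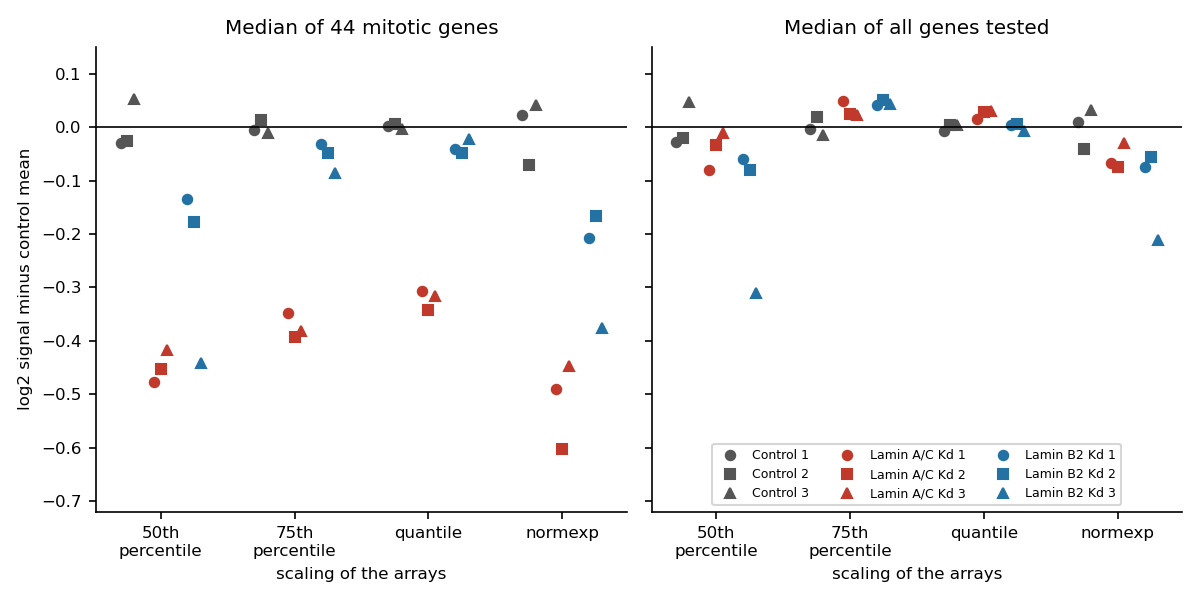
Median difference from the control mean on each array, in log2 units, for the 44 mitotic genes (left) and for all genes tested (right) under 4 scalings of the arrays. The Lamin A/C Kd arrays lie between −0.60 and −0.31 for the mitotic genes under every scaling, while the Lamin B2 Kd arrays move between −0.44 and −0.02.

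Of the 5 spindle checkpoint genes, 1 fell upon Lamin A/C Kd and 0 upon Lamin B2 Kd (5.78 and 3.92% of all genes). In this and the following small groups, 0 upon Lamin B2 Kd is near that share. TTK, the kinase that recruits the checkpoint to kinetochores, fell by 0.51 on the log2 scale upon Lamin A/C Kd (SE 0.13, adjusted p = 0.0455). Its signals were 3.96, 4.05 and 4.17 in Control, 3.66, 3.38 and 3.60 in Lamin A/C Kd and 4.07, 4.02 and 3.75 in Lamin B2 Kd, and the first 2 groups did not overlap. The log2 fold changes of BUB1, BUB1B, BUB3 and MAD2L1 were −0.37, −0.36, −0.32 and −0.49 upon Lamin A/C Kd, none past the threshold, though the arrays of each gene lay below the controls. In Lamin B2 Kd the 5 genes lay between −0.33 for MAD2L1 and −0.12 for TTK, and the arrays overlapped the controls in each. Without Lamin B2 Kd replicate 3 they lay between −0.12 for MAD2L1 and −0.02 for TTK. BUB3 had 4 probes, whose log2 fold changes upon Lamin A/C Kd ran from −0.45 to 0.16 with none called.

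Of the 11 mitotic entry kinases, cyclins and regulators, 6 fell upon Lamin A/C Kd and 0 upon Lamin B2 Kd (5.78 and 3.92% of all genes). AURKA, the kinase of centrosome maturation and spindle assembly, had signals of 6.86, 6.89 and 6.95 in Control, 6.02, 6.17 and 6.29 in Lamin A/C Kd and 6.61, 6.62 and 6.49 in Lamin B2 Kd. The 3 groups were fully separate, with Lamin A/C Kd lowest. AURKA fell by 0.74 upon Lamin A/C Kd (SE 0.11, adjusted p = 0.0065), to 59.8% of Control, and its change upon Lamin B2 Kd was −0.33 (adjusted p = 0.133). NEK2, a kinase of centrosome separation, had signals of 4.17, 4.12 and 4.37 in Control, 3.62, 3.57 and 3.60 in Lamin A/C Kd and 4.28, 4.21 and 3.86 in Lamin B2 Kd. Lamin B2 Kd overlapped Control, whereas all Lamin A/C Kd arrays lay below it. NEK2 fell by 0.62 upon Lamin A/C Kd (SE 0.14, adjusted p = 0.0247). Its second probe, dimmer, gave −0.60 with an adjusted p of 0.236. That probe read 2.19, 1.66 and 2.78 in Control, 1.37, 1.69 and 1.75 in Lamin A/C Kd and 2.31, 2.36 and 1.68 in Lamin B2 Kd, so its groups overlapped.

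FOXM1, a transcription factor of G2 and M genes, had signals of 5.96, 6.03 and 6.16 in Control, 5.19, 5.59 and 5.51 in Lamin A/C Kd and 5.77, 5.77 and 5.36 in Lamin B2 Kd. Both knockdowns lay below Control. It fell by 0.62 upon Lamin A/C Kd (SE 0.16, adjusted p = 0.042), and the change upon Lamin B2 Kd was −0.42 (adjusted p = 0.16). CDC2, the catalytic partner of the cyclins, fell by 0.56 upon Lamin A/C Kd, and CDCA3, a trigger of mitotic entry, by 0.47. PLK4, the kinase that starts centriole duplication, fell by 0.48 on its brighter probe and by 0.86 on the other, both called. The cyclins CCNA2, CCNB1 and CCNB2 changed by −0.44, −0.36 and −0.16 upon Lamin A/C Kd and did not pass, nor did the phosphatase CDC25C (−0.23) and the kinase PLK1 (−0.46). The log2 fold changes upon Lamin B2 Kd were −0.19 for CCNA2, −0.21 for CCNB1, −0.19 for CDC2, −0.23 for CDC25C, −0.10 for NEK2 and PLK4 and −0.36 for PLK1. For PLK1 the spot of Lamin B2 Kd replicate 1 was an outlier and was left out of the fit.

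In Lamin B2 Kd, CDCA3 and CCNB2 were among the 5 mitotic genes with the smallest p without passing the adjusted threshold. CDCA3 read 5.84, 5.81 and 5.91 in Control, 5.38, 5.40 and 5.39 in Lamin A/C Kd and 5.59, 5.47 and 5.22 in Lamin B2 Kd, and both knockdowns lay below Control. Its log2 fold change upon Lamin B2 Kd was −0.43 (SE 0.12, adjusted p = 0.0827). CCNB2, a partner of CDK1, read 8.29, 8.31 and 8.25 in Control, 8.07, 8.05 and 8.25 in Lamin A/C Kd and 7.98, 7.88 and 7.87 in Lamin B2 Kd. Here the Lamin B2 Kd arrays were the lowest, with a log2 fold change of −0.37 (SE 0.11, adjusted p = 0.0864).

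Of the 8 centromere and kinetochore genes, 3 fell upon Lamin A/C Kd and 0 upon Lamin B2 Kd (5.78 and 3.92% of all genes). CENPE, the kinesin that moves chromosomes to the spindle equator, had signals of 5.47, 5.39 and 5.36 in Control, 4.56, 4.67 and 4.86 in Lamin A/C Kd and 5.25, 5.24 and 4.89 in Lamin B2 Kd. All knockdown arrays lay below Control, and those of Lamin A/C Kd below those of Lamin B2 Kd. It fell by 0.71 upon Lamin A/C Kd (SE 0.14, adjusted p = 0.015), and the change upon Lamin B2 Kd was −0.28 (adjusted p = 0.246). ZWINT, which links the outer kinetochore to the checkpoint, had signals of 7.40, 7.42 and 7.46 in Control, 6.62, 6.65 and 6.87 in Lamin A/C Kd and 7.06, 7.01 and 6.79 in Lamin B2 Kd. Both knockdowns were separate from Control but overlapped each other. ZWINT fell by 0.71 upon Lamin A/C Kd (SE 0.12, adjusted p = 0.00939), and upon Lamin B2 Kd its change of −0.47 (SE 0.12) missed the threshold with an adjusted p of 0.065. NUF2, a subunit of the NDC80 complex that holds microtubules, had signals of 5.83, 5.76 and 5.92 in Control, 5.21, 5.19 and 5.33 in Lamin A/C Kd and 5.70, 5.67 and 5.31 in Lamin B2 Kd. It fell by 0.59 upon Lamin A/C Kd (SE 0.13, adjusted p = 0.0263).

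SPC25, in the same complex as NUF2, changed by −0.13 upon Lamin A/C Kd and by −0.10 upon Lamin B2 Kd. The centromeric histone CENPA changed by −0.42 and −0.29, the kinetochore protein CENPF by −0.29 and −0.33 and the inner kinetochore protein CENPH by −0.03 and −0.11, in the same order, with none past the threshold. A dimmer probe of CENPF gave 0.03 and −0.13. CENPM, also of the inner kinetochore, read 4.97, 4.70 and 4.95 in Control, 4.53, 4.70 and 4.61 in Lamin A/C Kd and 4.51, 4.46 and 3.86 in Lamin B2 Kd. Its change upon Lamin B2 Kd was −0.60 (adjusted p = 0.0956), and without replicate 3 it was −0.39. Upon Lamin A/C Kd it was −0.26.

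The chromosomal passenger complex corrects faulty spindle attachments and later drives cytokinesis. It is made of the kinase AURKB, its scaffold INCENP, BIRC5 (survivin) and CDCA8 (borealin). Of these 4, INCENP was called upon Lamin B2 Kd and BIRC5 upon Lamin A/C Kd (3.92 and 5.78% of all genes fell). INCENP, on Chr.11, had signals of 4.43, 4.53 and 4.51 in Control, 4.22, 4.18 and 4.65 in Lamin A/C Kd and 3.85, 3.65 and 3.80 in Lamin B2 Kd. The Lamin B2 Kd arrays lay apart below both other groups, and Lamin A/C Kd overlapped Control. INCENP fell by 0.72 upon Lamin B2 Kd (SE 0.14, adjusted p = 0.0337), to 60.5% of Control, and its change upon Lamin A/C Kd was −0.14 (adjusted p = 0.63). Its log2 fold change was between −0.77 and −0.50 over the alternatives and passed the threshold in 8 of 20, but not with the 75th percentile (adjusted p = 0.0751) or quantile normalization (adjusted p = 0.0908). Of the 9 fits that left out an array, it passed only in those without Lamin A/C Kd replicate 3 or Lamin B2 Kd replicate 3. BIRC5 had signals of 9.47, 9.37 and 9.57 in Control, 8.78, 8.95 and 8.95 in Lamin A/C Kd and 9.26, 9.31 and 8.83 in Lamin B2 Kd. It fell by 0.58 upon Lamin A/C Kd (SE 0.15, adjusted p = 0.0434) and its change upon Lamin B2 Kd was −0.34 (adjusted p = 0.212). Both knockdowns of BIRC5 lay below Control, and the difference between them did not pass (adjusted p = 0.315). AURKB changed by −0.45 and −0.51 and CDCA8 by −0.30 and −0.25, with the A/C knockdown first, and did not pass.

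None of the 4 genes of anaphase onset passed the threshold in either knockdown. Of all genes tested, 5.78% fell upon Lamin A/C Kd and 3.92% upon Lamin B2 Kd, so 0 of 4 is near those shares. The anaphase-promoting complex activator CDC20, its ubiquitin-conjugating enzyme UBE2C, securin (PTTG1) and separase (ESPL1) changed by −0.48, −0.34, −0.17 and −0.32 upon Lamin A/C Kd. In Lamin B2 Kd they changed by −0.33, −0.22, −0.30 and −0.39, and without replicate 3 by −0.18, −0.19, −0.19 and −0.13. A dimmer probe of ESPL1 gave 0.07 and 0.05, with the A/C knockdown first. At an unadjusted limma p under 0.05, 2 of these 4 were lower upon Lamin A/C Kd and 1 upon Lamin B2 Kd, where 14.7 and 20.1% of all genes were.

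**Figure D4:**
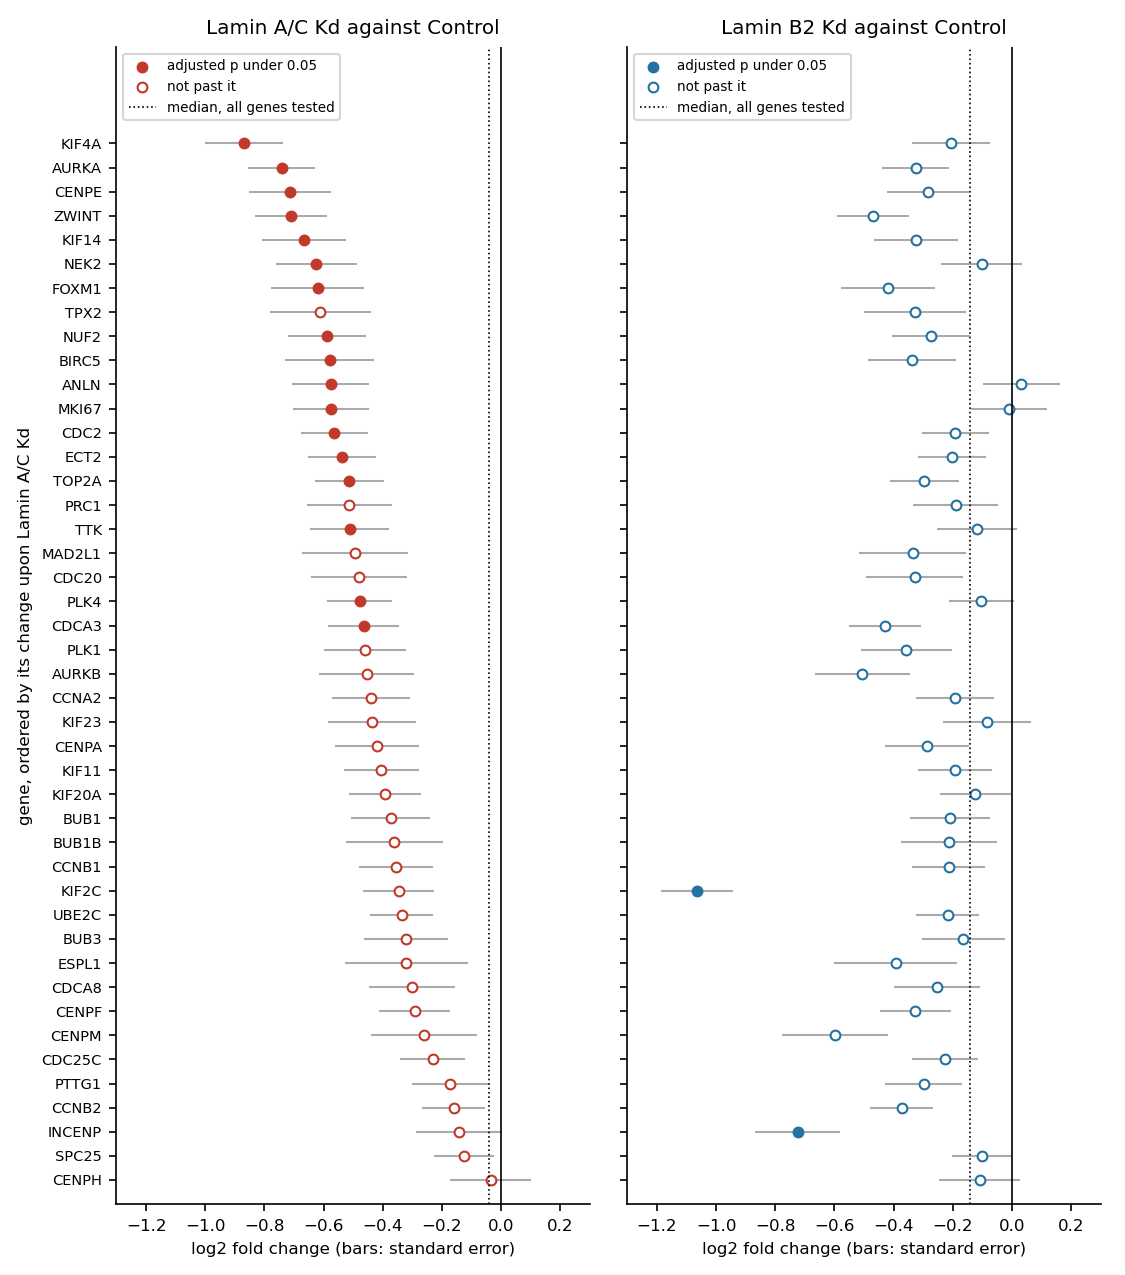
Log2 fold change of each mitotic gene against Control, with its standard error, for Lamin A/C Kd (left) and Lamin B2 Kd (right), in the order of the change upon Lamin A/C Kd. Filled points passed an adjusted p of 0.05, and dotted lines show the median of all genes tested, at −0.04 and −0.14.

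The 5 genes of spindle motors and assembly held the largest changes of both knockdowns, in different genes. KIF2C, a kinesin on Chr.1 that depolymerizes microtubules at centromeres, had signals of 7.39, 7.42 and 7.40 in Control, 7.02, 7.08 and 7.07 in Lamin A/C Kd and 6.47, 6.43 and 6.12 in Lamin B2 Kd. The 3 groups were separate, with Lamin B2 Kd lowest. KIF2C fell by 1.06 upon Lamin B2 Kd (SE 0.12, adjusted p = 0.00684), to 47.8% of Control, and its change upon Lamin A/C Kd was −0.35 (adjusted p = 0.113). It fell in 18 of 20 alternatives, not with only the 2 groups compared in the fit (adjusted p = 0.0574) or without Control replicate 3 (adjusted p = 0.0507). Without Lamin B2 Kd replicate 3 it fell by 0.95 (adjusted p = 0.00391), under 2-fold. With the 75th percentile it fell by 0.87.

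KIF4A, a motor that compacts chromosomes and organizes the central spindle, had signals of 4.59, 4.64 and 4.83 in Control, 3.60, 3.94 and 3.91 in Lamin A/C Kd and 4.56, 4.47 and 4.42 in Lamin B2 Kd. The Lamin A/C Kd arrays all lay below the other 6. KIF4A fell by 0.87 upon Lamin A/C Kd (SE 0.13, adjusted p = 0.00644), to 54.8% of Control, and its change upon Lamin B2 Kd was −0.20 (adjusted p = 0.357). KIF14, a kinesin of cytokinesis, was dim, with signals of −0.09, 0.18 and −0.27 in Control, −0.76, −0.71 and −0.70 in Lamin A/C Kd and −0.36, −0.23 and −0.55 in Lamin B2 Kd. It fell by 0.67 upon Lamin A/C Kd (SE 0.14, adjusted p = 0.0222). The spindle pole motor KIF11 and the spindle assembly factor TPX2 changed by −0.40 and −0.61 upon Lamin A/C Kd and by −0.19 and −0.33 upon Lamin B2 Kd without passing the threshold, and KIF14 by −0.32 upon Lamin B2 Kd.

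Of the 5 genes of cytokinesis and the central spindle, 2 fell upon Lamin A/C Kd and 0 upon Lamin B2 Kd (5.78 and 3.92% of all genes). ANLN (anillin), which scaffolds the contractile ring, had signals of 4.80, 4.74 and 5.03 in Control, 4.35, 4.08 and 4.42 in Lamin A/C Kd and 4.88, 4.90 and 4.89 in Lamin B2 Kd. Lamin B2 Kd lay within the range of Control. ANLN fell by 0.58 upon Lamin A/C Kd (SE 0.13, adjusted p = 0.0277), and it was the 1 mitotic gene with a log2 fold change above 0 upon Lamin B2 Kd, at 0.03. ECT2, the activator of RhoA at the division plane, fell by 0.54 upon Lamin A/C Kd, and its other probes, by 0.63 and 0.66, were called too. The motors KIF20A and KIF23 and the microtubule bundler PRC1 changed by −0.39, −0.44 and −0.51 upon Lamin A/C Kd. The changes upon Lamin B2 Kd were −0.12, −0.09, −0.19 and −0.20 for KIF20A, KIF23, PRC1 and ECT2, and without replicate 3 those of KIF20A and KIF23 were −0.04 and 0.07. Both genes of mitotic chromosome structure fell upon Lamin A/C Kd, where 5.78% of all genes did. The topoisomerase TOP2A fell by 0.51 and the chromosome surface protein and proliferation marker MKI67 by 0.57. Their changes upon Lamin B2 Kd were −0.30 and −0.01.

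The knockdowns were then compared with each other. Lamin A/C Kd was below Lamin B2 Kd in the mean of 35 of 44 genes, and of 9726 of the 21852 genes tested. Of the 44, 6 were lower past the adjusted p while 2 were higher. Over the 21852 genes tested, 4.53% were lower and 11.2% were higher in Lamin A/C Kd. The 6 lower genes were KIF4A (−0.66, adjusted p = 0.0103), ANLN (−0.61, adjusted p = 0.0146), MKI67 (−0.56, adjusted p = 0.0183), NEK2 (−0.52, adjusted p = 0.0331), AURKA (−0.42, adjusted p = 0.0372) and PLK4 (−0.37, adjusted p = 0.0499). KIF2C and INCENP were higher in Lamin A/C Kd, by 0.72 (SE 0.12, adjusted p = 0.00531) and 0.58 (SE 0.14, adjusted p = 0.0262). MKI67 read 3.26, 3.25 and 3.52 in Control, 2.59, 2.84 and 2.87 in Lamin A/C Kd and 3.37, 3.25 and 3.38 in Lamin B2 Kd, so that Lamin B2 Kd overlapped Control and Lamin A/C Kd did not. The genes KIF2C and KIF4A kept their difference in all 20 alternatives, ANLN in 19, MKI67 in 18, INCENP in 16, AURKA in 10, PLK4 in 9 and NEK2 in 8. The total of 8 genes was 16 without Lamin B2 Kd replicate 3. It was 5 without Control replicate 1, Control replicate 2, replicate 3 of Lamin A/C Kd or replicate 1 of Lamin B2 Kd, and 4 without replicate 1 or 2 of Lamin A/C Kd or replicate 2 of Lamin B2 Kd. With the 75th percentile, 23 genes were lower and 2 higher. That scaling also moved the median of all genes tested, from 0.05 to −0.07, and the share of all genes called under it is not given here.

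**Figure D5:**
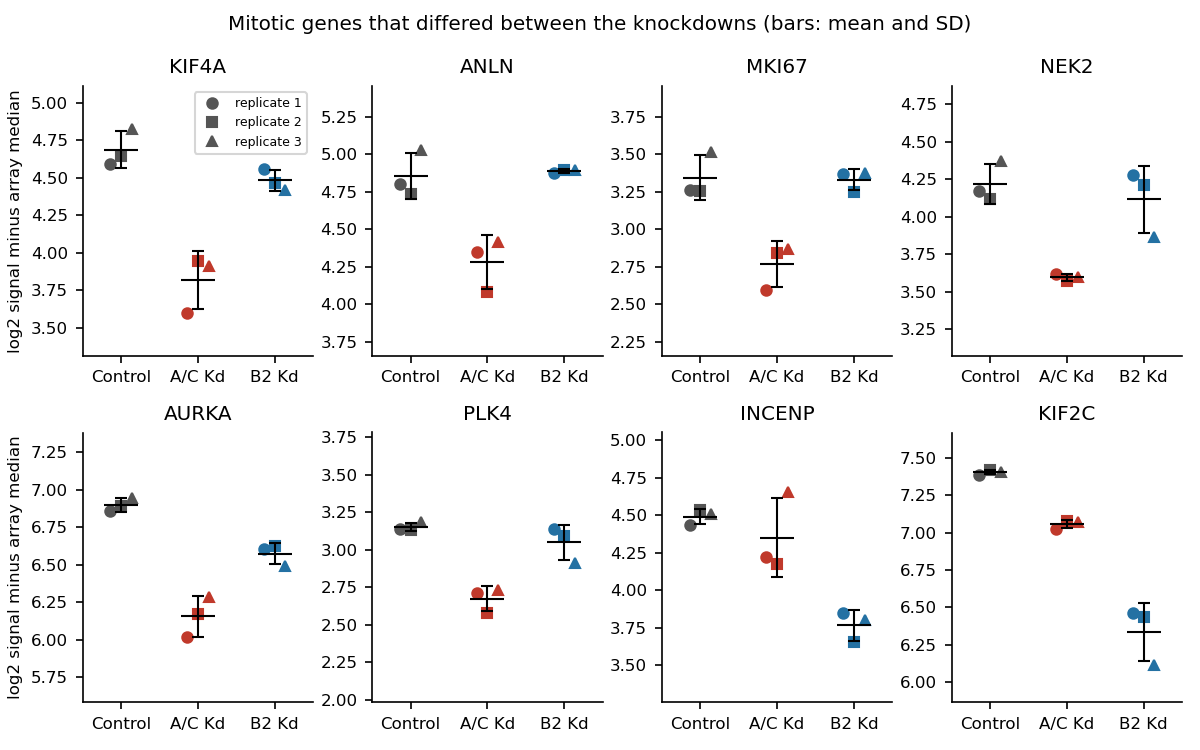
Log2 signal minus the array median of the 8 mitotic genes that differed between the knockdowns, with 1 point per array and the mean and SD of each group of 3. KIF4A, ANLN, MKI67, NEK2, AURKA and PLK4 are lowest in Lamin A/C Kd, and INCENP and KIF2C in Lamin B2 Kd.

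The 44 genes lie on 16 chromosomes, with 0 on Chr.18 or 19. The 3 genes on Chr.17, AURKB, BIRC5 and TOP2A, had log2 fold changes of −0.51, −0.34 and −0.30 upon Lamin B2 Kd, none of them called, and of −0.45, −0.58 and −0.51 upon Lamin A/C Kd, where BIRC5 and TOP2A were called.

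Other mitotic genes were taken from 5 further lists, of kinetochore, spindle and cytokinesis, anaphase-promoting complex, mitotic entry and exit, and centriole duplication genes. Of 84 names, 83 were on the array and 82 were tested. Upon Lamin A/C Kd 17 of 82 fell (20.7%, against 5.78% of all genes tested) and 0 rose, with a median log2 fold change of −0.34 against −0.04. They were 9 of 29 kinetochore genes, 4 of 19 spindle and cytokinesis genes, 2 of 15 of the anaphase-promoting complex, 2 of 14 of mitotic entry and exit and 0 of 5 of centriole duplication, of which 2 were lower at an unadjusted limma p under 0.05 (14.7% of all genes were). CENPP and CENPN, both of the inner kinetochore, fell by 1.58 and 0.93, CENPW (listed as C6orf173) by 0.62, and the spindle protein HMMR fell by 1.44. The spindle proteins DLGAP5 (listed as DLG7) and KIF20B (MPHOSPH1) fell by 0.63 and 0.55, the complex subunits ANAPC5 and CDC23 by 0.70 and 0.54, and the Aurora A activator BORA (C13orf34) and the transcription factor MYBL2 by 0.95 and 0.62. The count was 4 without Control replicate 1, Control replicate 3 or replicate 1 of Lamin A/C Kd, 6 without replicate 2 of Control or Lamin A/C Kd, 11 leaving out replicate 3 of the latter and 36 without Lamin B2 Kd replicate 3.

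Upon Lamin B2 Kd the median of these 82 genes was −0.24 against −0.14 over all genes tested. Of the 82, 4 fell (4.88%, near the 3.92% of all genes tested) and 0 rose. They were UBE2S, the enzyme that extends ubiquitin chains on substrates of the anaphase-promoting complex, by 1.15, the spindle motor KIFC1 by 0.98, the centriole duplication factor STIL by 0.86 and SPC24, the partner of SPC25, by 0.77. Upon Lamin A/C Kd these 4 changed by −0.58, −0.18, −0.19 and −0.37 and did not pass. The count became 0 without Control replicate 1, 2 or 3 and 2 without Lamin A/C Kd replicate 1, 2 or 3.

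Genes of neighbouring steps of the cell cycle are given for comparison. Of 20 genes of G1 to S and replication, 11 fell upon Lamin A/C Kd (55%, against 5.78% of all genes tested), with a median of −0.54. The largest falls were those of the helicase subunit MCM6 (−1.22), the replication factor CDC45L (−0.83) and the helicase subunit MCM4 (−0.80). In Lamin B2 Kd 0 of 20 fell (3.92% of all genes did), with a median of −0.29 against −0.14 over all genes. There 9 of the 20 were lower at an unadjusted limma p under 0.05 (20.1% of all genes were). Of 10 cell cycle inhibitors, CDKN1C rose by 1.33 upon Lamin A/C Kd (SE 0.18, adjusted p = 0.00461), while the pocket proteins RBL1 and RB1 and the inhibitor CDKN2C fell by 0.83, 0.52 and 0.54. Of all genes tested, 3.15% rose and 5.78% fell there. Upon Lamin B2 Kd CDKN1C changed by −0.34 (adjusted p = 0.29), and the difference between the knockdowns was 1.66 (adjusted p = 0.000834). CDKN1A had log2 fold changes of −0.53 (adjusted p = 0.0554) and 0.37 (adjusted p = 0.17) in the same order, and it was lower in Lamin A/C Kd than in Lamin B2 Kd by −0.90 (adjusted p = 0.00445). CDKN1A and RB1 were named after their values were seen.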

How the data were processed

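Scanner output of 9 single-color Agilent arrays was deposited by the authors as processed intensity. Feature Extraction had subtracted the background and, apart from Lamin B2 Kd replicate 3, corrected multiplicative trends. They also deposited a table of log2 signals after a 50th percentile shift and row centering, used as an alternative. Its Lamin B2 Kd columns were matched to the group only. Each log2 intensity was shifted by its array's 50th percentile over spots that are not controls, outlier spots were dropped, and probes were tested where at least 0.5 of their spots were well above background on every array of 1 of the groups compared. No spot was saturated. The brightest probe gave the value of a gene. limma 3.58.1 (R 4.3.3) was fitted over all 9 arrays, with Benjamini-Hochberg adjustment over all tested probes. The fit was also run on simulated arrays with independent noise of equal spread in every group. That setting has no array like Lamin B2 Kd replicate 3, so it does not bear on the calls.

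The 44 genes and all lists were chosen with earlier results of these data known. Full values are given for the 10 largest called changes upon Lamin A/C Kd, for the 5 smallest p-values upon Lamin B2 Kd, for genes past 2-fold with an unadjusted p under 0.05, and for genes whose probes lay on both sides of the adjusted threshold or had opposite signs both past an unadjusted p of 0.05. Values on every array are also given for TTK, MKI67 and CENPM, which lie outside these rules. The other lists are represented by up to 3 called genes each, apart from genes said to be named later. Alternatives were a 75th percentile shift, quantile normalization, normexp with an offset of 50, the table, other detection filters, array weights, blocks, averaged probes, a 1.5-fold criterion and each array left out. A group left with 2 arrays is assumed to vary like the others. Same-numbered arrays did not deviate together (r over 0.1 in 1 of 9 pairs). Promoter windows and chromosomes came from RefSeq tables of GRCh38.p14.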

Additional observations from a re-analysis of the deposited data

How the results depend on the processing

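Without the detection filter, the 17 mitotic genes that fell upon Lamin A/C Kd became 5, and they became 27 with the 75th percentile, 34 with normexp, 32 with only the groups compared in the fit, 36 with array weights, 32 with the slide as a block and 9 at 1.5-fold with an unadjusted p. The 2 genes upon Lamin B2 Kd became 1 with the 75th percentile, quantile normalization or no filter, 7 with normexp, 5 with array weights and 0 with only the groups compared. The 8 genes that differed between the knockdowns became 25 with the 75th percentile, 21 with quantile normalization, 17 with normexp, 4 without the filter, 3 with only the groups compared, 14 with array weights, 16 with the slide as a block and 3 at 1.5-fold. At 2-fold, KIF2C was lost (0 genes) upon Lamin B2 Kd with the 75th percentile, quantile normalization, array weights and the slide as a block, and at 1.5-fold there were 9 genes upon Lamin A/C Kd and 3 upon Lamin B2 Kd. The median upon Lamin A/C Kd was −0.38, −0.32 and −0.51 with the 75th percentile, quantile normalization and normexp, and upon Lamin B2 Kd it was −0.068 with the 75th percentile and −0.043 with quantile normalization. The 17 other mitotic genes upon Lamin A/C Kd became 30 with the 75th percentile, 41 with normexp, 10 without the filter, 34 with only the groups compared, 44 with array weights, 36 with the slide as a block and 11 at 1.5-fold, and the 4 upon Lamin B2 Kd became 10, 1 and 0 with normexp, no filter and only the groups compared. The shares of all genes called are not given for these alternatives or for the fits with an array left out. The settings can move all genes: with the 75th percentile their median upon Lamin A/C Kd went from −0.04 to 0.04. The counts therefore do not set the mitotic genes apart from other genes. The cause of these shifts was not tested.

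With single arrays left out, the counts ranged from 3 to 32 and from 0 to 2 for the mitotic genes upon Lamin A/C Kd and upon Lamin B2 Kd, from 4 to 16 between the knockdowns, from 0 to 1 at 2-fold upon Lamin B2 Kd, and from 4 to 36 and from 0 to 4 for the other mitotic genes. The medians ranged from −0.48 to −0.42 and from −0.34 to −0.16. With the replicate number as a block, 5 mitotic genes fell upon Lamin A/C Kd, 1 upon Lamin B2 Kd and 5 differed between the knockdowns, and the other mitotic genes gave 7 and 1. The labels do not say that the numbers mark a shared batch, same-numbered arrays correlated between −0.09 and 0.15 in their deviations, and 2 of 9 arrays correlated best with their own number. None of the 27 called log2 fold changes of mitotic genes changed sign in any of the 20 alternatives. The 27 were picked by their calls in these same data. Several alternatives, such as the detection filters and the replicate block, left the medians of the mitotic genes unchanged. The constant signs are therefore a description and no test. The brightest probes were well above background on all 9 arrays, and the 3 arrays per group limit the precision.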
